A study of Homo sapiens with 12 samples.

Results

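Clone KO414 is a p53 knockout line of MCF10A, an immortalized and non-tumorigenic human mammary epithelial cell line, and its RNA-seq profile was set against that of WT MCF10A cells. The groups were taken from the sample labels: 4 libraries of this clone (KO414) and 4 libraries of WT cells, 8 of the 12 libraries of the study. The other 4 libraries are of another p53 KO clone (KO313) and were used here to see which changes of KO414 that clone shares. Both clones were made with CRISPR-Cas9 and a pair of guide RNAs each, sorted for a co-transfected green fluorescent protein and grown from single cells, so KO414 stands for a single clone and its 4 libraries are repeats of that clone. All 3 groups were grown untreated in the same medium, with horse serum, insulin, EGF, hydrocortisone and cholera toxin. A clone differs from WT by the edit and by whatever else the founding cell carried or the clone acquired, and with 1 clone these cannot be told apart. In bulk RNA, fewer cells of a type and less RNA per cell cannot be told apart either.

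p53 is a transcription factor that is activated by DNA damage and other stresses. It binds DNA as a tetramer and switches on genes that halt the cell cycle (CDKN1A), trigger apoptosis (BBC3), repair DNA (XPC, DDB2) and restrain p53 itself (MDM2, PPM1D). Its loss also relieves the indirect repression of cell cycle genes that acts through CDKN1A and the DREAM complex. Mammary epithelial cells in culture hold some p53 activity without added stress, so that the loss of p53 can be read without a DNA-damaging agent.

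Values are in RPKM, the unit of the deposited table, which divides reads by gene length and library total. Among the p53 relatives, TP63, which marks basal epithelial cells, was at 6.75, 9.94, 8.21 and 8.73 RPKM in KO414 and at 6.57, 6.47, 5.68 and 6.48 RPKM in WT, 1.33-fold higher (limma adjusted p = 0.0102). It was higher in KO313 too, at 9.49 RPKM on average (limma adjusted p = 0.0012). For TP63 no difference between the clones passed the test (limma adjusted p = 0.572). TP73 was at 0.324, 0.313, 0.332 and 0.238 RPKM in KO414 and at 0.753, 0.541, 0.469 and 0.634 RPKM in WT, 1.99-fold lower (limma adjusted p = 0.00302). The 4 KO414 libraries lay below every WT library for TP73, yet all lay above the KO313 libraries, which were at 0.0793, 0.0865, 0.0504 and 0.112 RPKM, and the clones differed by 1.43 on the log2 scale (limma adjusted p = 0.000309). Reads per gene do not separate the TA and ΔN isoforms of TP73. CBFB, which binds DNA together with RUNX factors, averaged 32.2 ± 1.55 RPKM in KO414 and 28.6 ± 3.19 RPKM in WT (SD, n = 4 each; limma adjusted p = 0.106), and RUNX1 averaged 7.19 ± 0.702 RPKM in KO414 and 7.24 ± 0.708 RPKM in WT (SD, n = 4 each; limma adjusted p = 0.953). The receptor gene NOTCH3 was 1.79-fold lower in KO414 (limma adjusted p = 0.000232), with 0.264 to 0.355 RPKM in KO414 and 0.492 to 0.574 RPKM in WT. NOTCH3 was lower in KO313 too, at 0.257 RPKM on average (limma adjusted p = 5.11e-05). The clones did not differ past the test (limma adjusted p = 0.547).

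Library sizes were nearly equal in the table as deposited. The whole numbers behind the RPKM values summed to 39294810 to 39343011 per library, and since they had been scaled by the authors they are called scaled reads here and are not read counts. Genes above 0 numbered 16017 to 16229 in KO414 and 15985 to 16641 in WT. Within KO414 the correlation of log2 values between libraries ranged over 0.977 to 0.996, against 0.99 to 0.995 within WT. KO414 replicate 1 stood apart from the other 3, at 27.6 on the second principal component (17.1% of the variance) against -17.5 to -3.21 for the others, and counts without it are given beside the results. The basal and epithelial markers of the line were present in KO414, with KRT5 averaging 922 RPKM, and the 6 immune and 4 endothelial markers (PTPRC, PECAM1 and others) were all under 0.05 RPKM. Of the 6 fibroblast markers 4 were under 0.05 RPKM, and their summed level of 3.25 to 4.00 RPKM in KO414 and 3.77 to 4.31 RPKM in WT was mostly PDGFRA. Estrogen and progesterone receptor genes together were at 0.243 to 0.351 RPKM in KO414 and 0.358 to 0.508 RPKM in WT.

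Differences between KO414 and WT were tested on log2(RPKM + 0.5) for the 12215 genes with at least 0.5 RPKM in at least 4 libraries. With limma, 234 genes had an adjusted p under 0.05 with a change of 2-fold or more and were called (1.92% of those tested), of which 41 were higher (0.336%) and 193 lower (1.58%) in KO414. The KO414 and WT libraries did not overlap for 231 of the 234, where 27.9% of all tested genes did not overlap. At any fold, 1857 genes (15.2%) were higher and 1785 (14.6%) lower at an adjusted p under 0.05, and the median log2 difference over all tested genes was 0.00618. At any fold the numbers of higher and lower genes were thus close, whereas 193 of the 234 called genes were lower. Without KO414 replicate 1 the count was 249, with 43 higher and 206 lower. With a constant of 1 it was 151, and with limma-voom on the scaled reads 387. Among the called genes, 45 had passed the filter on low values through the WT libraries alone and 1 through KO414 alone. The direction of such genes was set by the filter, so the split of lower and higher calls is in part no measure of direction. The fold on this scale understates changes of weakly expressed genes, so folds printed beside RPKM values are ratios of group means.

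KO313 shared the greater part of these calls. Of the 234 genes, 146 were also called in KO313 against WT in the same direction (18 higher, 128 lower). These comparisons use the same WT libraries, so a shared call is not independent. The other 88 consist of COL16A1, called in opposite directions, and 87 genes that were not called in KO313. A gene past the threshold in KO414 and not in KO313 need not differ between the clones, so the clones were also compared directly, which called 35 genes (0.287% of those tested), 6 higher and 29 lower in KO414. A gene is termed own to KO414 where it was called against WT and against KO313 in the same direction and was not called for KO313 against WT. By this rule 20 genes (0.164%) were own to KO414, 18 lower and 2 higher, and the other 67 of the 87 did not reach both thresholds between the clones. The number of own genes was 25 without KO414 replicate 1, 9 with a constant of 1 added in place of 0.5, 48 with 0.1, and 57 with limma-voom on the scaled reads.

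**Figure D1:**
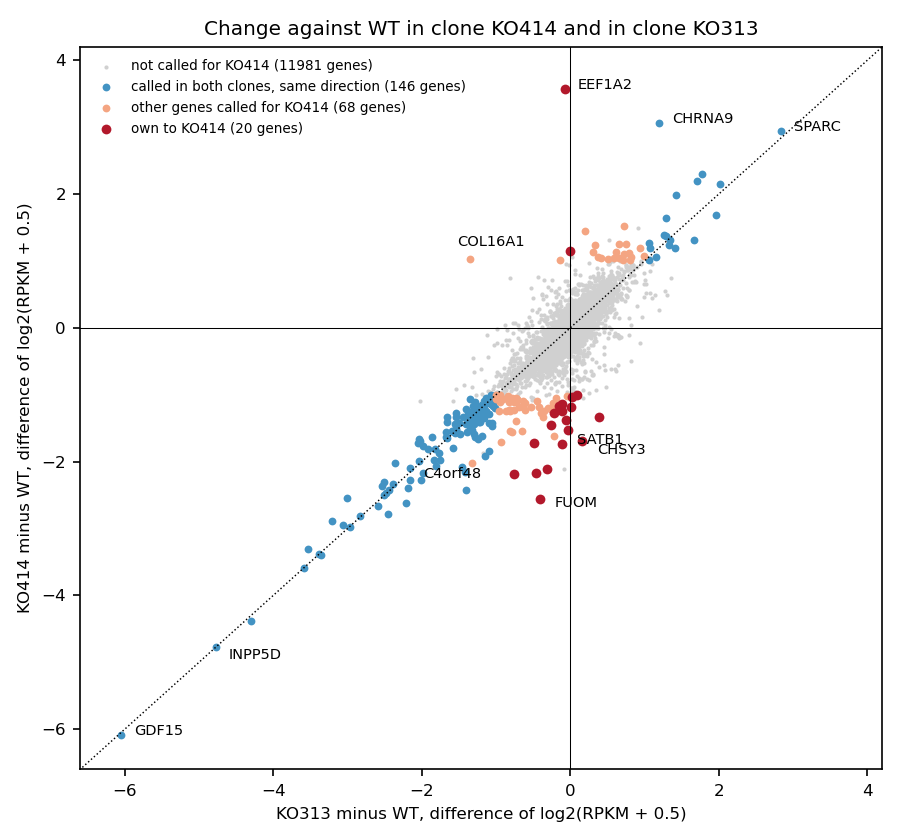
Difference in log2(RPKM + 0.5) of KO414 minus WT (vertical axis) and of KO313 minus WT (horizontal axis) for the 12215 tested genes, 1 point per gene, with the dotted line marking equal change. The called genes shared by the clones lie along the line, whereas the 20 genes own to KO414 (dark red) lie between -0.75 (C4orf48) and 0.39 (GUCY1B3) on the horizontal axis and run from EEF1A2 at 3.57 to FUOM at -2.55 on the vertical axis; both axes share the WT libraries.

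Among the 18 lower own genes, the most complete losses were those of SATB1, GUCY1A3 and ZNF711. SATB1, a chromatin organizer that folds chromatin loops and is known from T cells and epithelial tumors, was at 0.0221, 0.0316, 0.0158 and 0.0285 RPKM in KO414, at 1.04 to 1.17 RPKM in KO313, and at 1.25, 1.38, 1.25 and 1.10 RPKM in WT. It was 50.8-fold lower in KO414 than in WT (limma adjusted p = 5.49e-10). ZNF711, an X-linked zinc finger gene, was at 0.0105, 0, 0.00700 and 0 RPKM in KO414, at 0.507 to 0.622 RPKM in KO313 and at 0.651 to 0.878 RPKM in WT, 167-fold lower (limma adjusted p = 2.56e-08). The size of this fold rests on 5 scaled reads over the 4 KO414 libraries. Their mean of 0.00437 RPKM is below the 0.0105 RPKM that 3 scaled reads per library would give. GUCY1A3 held 2 scaled reads over the 4 KO414 libraries, against 1365 in KO313 and 1455 in WT, and its RPKM of at most 0.00221 in KO414 compares with 0.747 to 0.862 in WT. GUCY1A3 encodes the alpha subunit of soluble guanylate cyclase, the enzyme that makes cyclic GMP in response to nitric oxide.

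The beta subunit gene of the same enzyme, GUCY1B3, lies beside GUCY1A3 on chromosome 4 and was low as well. It was at 0.238, 0.190, 0.195 and 0.167 RPKM in KO414, at 1.72 to 1.99 RPKM in KO313 and at 1.28, 1.23, 1.15 and 1.41 RPKM in WT. The KO414 mean was 6.41-fold below WT (limma adjusted p = 1.17e-08), whereas KO313 was above WT by 0.39 on the log2 scale (limma adjusted p = 0.000985).

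The other lower own genes named here have varied roles. FUOM, the fucose mutarotase, was at 0.238, 0.0216, 0.0649 and 0.130 RPKM in KO414 and at 2.49, 3.14, 3.31 and 3.44 RPKM in WT, 27.3-fold lower (limma adjusted p = 9.39e-09). CHSY3, a chondroitin sulfate synthase, was at 0.0703, 0.0786, 0.0538 and 0.0911 RPKM in KO414 and at 1.47, 1.40, 1.11 and 1.46 RPKM in WT, 18.5-fold lower (limma adjusted p = 2.82e-09). MAN1A1, a Golgi mannosidase that trims N-glycans, averaged 0.407 ± 0.0532 RPKM in KO414 and 1.57 ± 0.184 RPKM in WT (SD, n = 4 each), and was 3.87-fold lower. The membrane protein genes PLXDC2 and TMEM47 were 15.3-fold and 7.0-fold lower than in WT, and HRASLS, a phospholipid-modifying enzyme gene, was 4.73-fold lower. In KO313, CHSY3, PLXDC2, MAN1A1 and HRASLS were not past the test against WT (limma adjusted p of 0.125, 0.821, 0.957 and 0.900), whereas TMEM47 was lower there too by 0.50 on the log2 scale (limma adjusted p = 0.00134). FUOM was also lower in KO313, at 1.95 to 2.62 RPKM (log2 difference from WT -0.41, limma adjusted p = 0.0297).

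Only 2 own genes were higher. EEF1A2, the elongation factor isoform that is normally made in neurons, heart and muscle, was at 33.7, 24.3, 26.4 and 28.7 RPKM in KO414, at 1.6 to 2.06 RPKM in KO313 and at 1.83, 1.78, 1.91 and 2.09 RPKM in WT. Every KO414 library was above 24 RPKM and no other library reached 3 RPKM. The mean was 14.9-fold higher than in WT (log2 difference 3.57 ± 0.0951, SE; limma adjusted p = 4.11e-11). The other, the microRNA gene MIR3613, rests on 13 scaled reads in KO414 against 2 in KO313 and 2 in WT over a gene of 87 bases, and it passed the filter through KO414 alone.

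**Figure D2:**
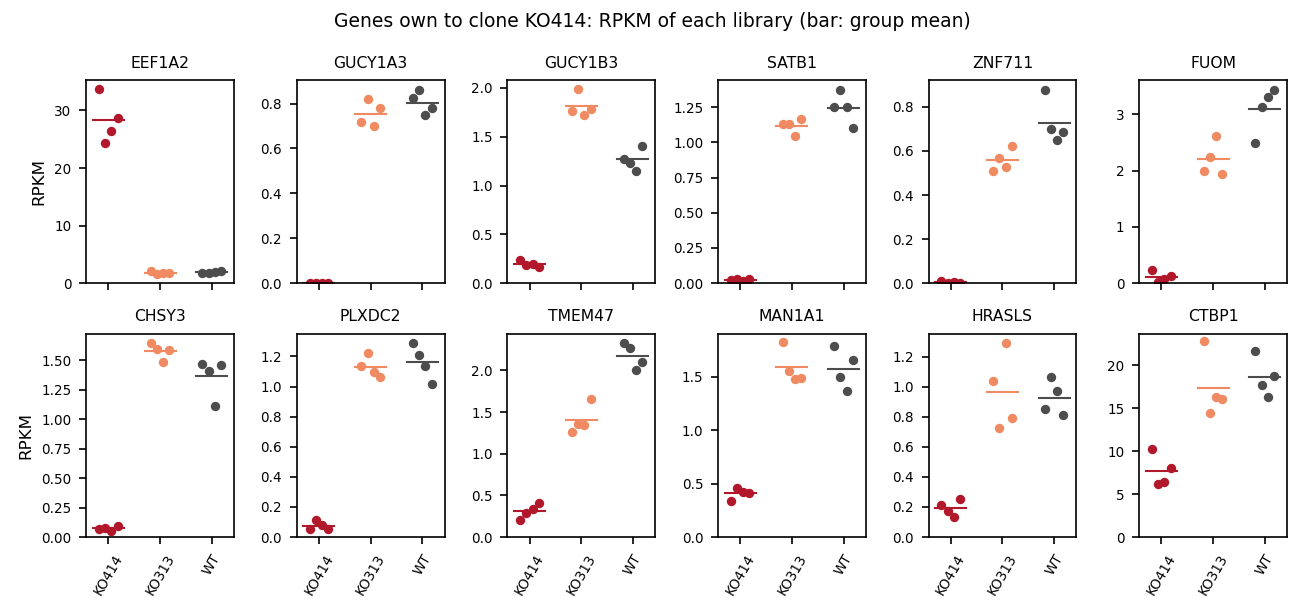
RPKM of each library (points) with the group mean (bar) in KO414, KO313 and WT, left to right, for EEF1A2 and 11 further genes own to KO414, each panel with its own axis from 0. The KO414 points lie apart from those of both other groups in every panel, above them for EEF1A2 and below them for the others.

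Of the 18 lower own genes, 7 had a KO414 mean at least 10-fold below WT and 4 less than 3-fold below it. The last 4, CTBP1, MAEA, TMEM175 and MFSD10, lie together at the end of the short arm of chromosome 4 (4p), as do TMEM129 and C4orf48. CTBP1, a transcriptional co-repressor, was at 10.3, 6.11, 6.38 and 8.07 RPKM in KO414, at 14.4 to 22.8 RPKM in KO313 and at 21.6, 17.7, 16.3 and 18.8 RPKM in WT, 2.41-fold lower (limma adjusted p = 0.000112). MAEA, a subunit of the CTLH ubiquitin ligase, averaged 10.7 ± 2.10 RPKM in KO414 and 24.3 ± 2.44 RPKM in WT (SD, n = 4 each). In all, 9 of the 20 own genes were on chromosome 4, which holds 429 of the 12062 tested genes that were placed on a chromosome.

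The tested genes were therefore laid out in chromosome order, as a description without a test. Over the 11510 runs of 25 neighbouring genes, the median log2 difference of KO414 minus WT was 0.009 at the median run, with -0.166 at the 1st percentile and 0.205 at the 99th. The lowest run, PIGG to MIR4800 near the 4p end, was at -0.956, with 24 of its 25 genes below 0, and stood at -0.933 against KO313. The same run in KO313 minus WT was at -0.109. The next lowest run that shares no gene with it, LRAT to CBR4, on the long arm of chromosome 4, was at -0.296. The highest run, KANSL2 to FMNL3 on chromosome 12, was at 0.329.

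From ZNF595, the first tested gene of 4p, through MFSD10 there are 38 tested genes, a stretch whose limits were chosen after the values were seen. All but NAT8L were lower in KO414 than in WT at an adjusted p under 0.05, where 14.6% of all tested genes were, and the libraries of these 37 did not overlap with WT, where those of 27.9% of all tested genes did not. For the 37 genes of at least 1 RPKM in WT, the median ratio of KO414 to WT was 0.510 and that of KO313 to WT was 1.0. The ratio lay between 0.4 and 0.65 in 27 of the 37, against 3.14% of the 10920 placed genes of this level outside the stretch. The median over these genes relative to the WT mean was 0.518, 0.520, 0.470 and 0.515 in the 4 KO414 libraries, 0.941 to 1.09 in KO313 and 0.975 to 1.04 in WT. Hence all 4 KO414 libraries showed it to a like degree, replicate 1 included. DNA copy number was not measured in these files.

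Genes of the stretch have unrelated roles. PIGG, which modifies glycosylphosphatidylinositol anchors, was at 0.485 times its WT level (limma adjusted p = 6.12e-09), and LETM1, a mitochondrial ion exchanger, at 0.578 times (limma adjusted p = 2.25e-07). ATP5I, a subunit of ATP synthase, averaged 72.9 ± 12.8 RPKM in KO414 and 165 ± 17.6 RPKM in WT (SD, n = 4 each). SLBP, which binds the stem-loop of histone mRNAs, was at 25.7, 22.9, 24.8 and 23.3 RPKM in KO414, at 44.7 to 48.1 RPKM in KO313 and at 37.0 to 40.0 RPKM in WT. ADD1, a cytoskeletal adducin, was at 0.526 times and RNF4, a SUMO-targeted ubiquitin ligase, at 0.581 times its WT level. Of the 38 genes 14 passed the 2-fold threshold, and the stretch accounts for 6 of the 18 lower own genes. The other 12 lie elsewhere. A few genes of the stretch departed from the rest. ANKRD20A12P and MXD4, a MYC antagonist of the MAX network, were lower in both clones, and C4orf48 held 6 scaled reads in KO414 against 141 in KO313 and 259 in WT.

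After MFSD10 the ratios returned towards 1. NOP14-AS1 was at 0.775 times its WT level, and NOP14, which it overlaps, at 0.902 times (limma adjusted p = 0.10). HTT, the huntingtin gene, was at 0.966 times (limma adjusted p = 0.763). The next 39 tested genes were NOP14-AS1 to BOD1L1. For the 31 of them of at least 1 RPKM in WT, the median ratio of KO414 to WT was 0.905. At an adjusted p under 0.05, 7 of the 39 were lower and 4 higher, where 14.6% and 15.2% of all tested genes were. Of the lower genes, RGS12, a regulator of G protein signaling, was at 0.333 times its WT level in KO414 and was called lower in KO313 as well (KO414 minus KO313 limma adjusted p = 0.622).

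**Figure D3:**
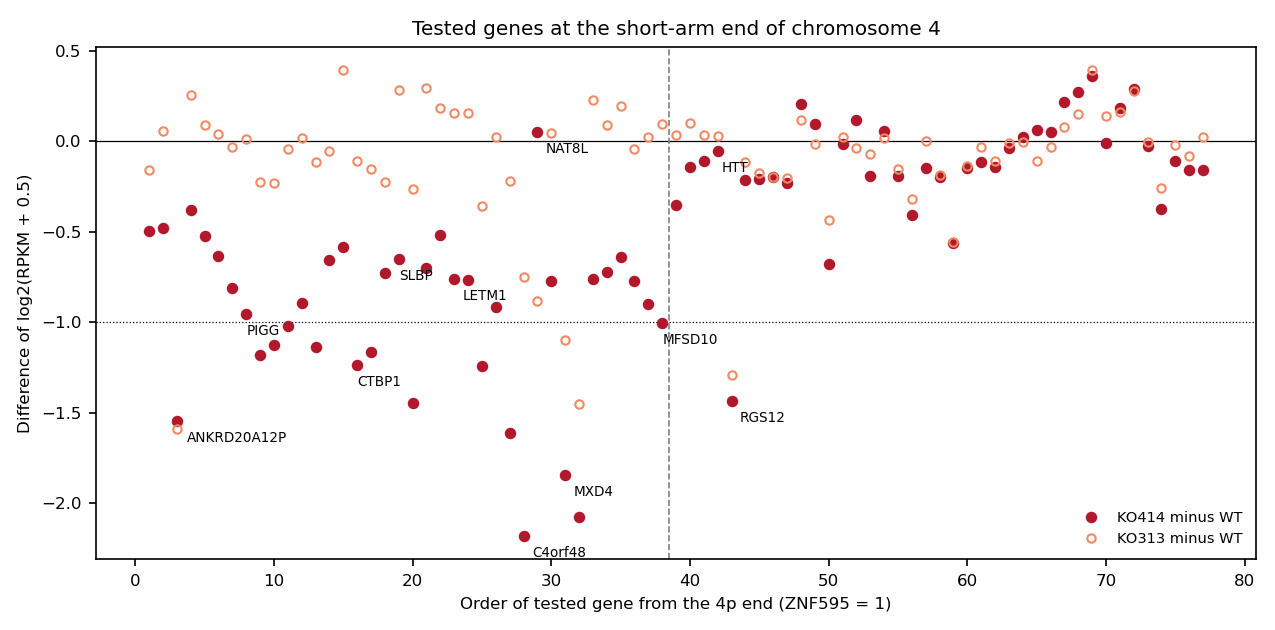
Difference in log2(RPKM + 0.5) against WT for the first 77 tested genes of chromosome 4 in order from the 4p end, KO414 minus WT as filled and KO313 minus WT as open points; the dotted line marks -1 and the dashed line the place after MFSD10. Left of the dashed line 37 of 38 filled points are below 0, whereas most open points lie around 0.

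Below the filter of the first test are genes with little mRNA, for which a smaller added constant was used, log2(RPKM + 0.05), with at least 0.05 RPKM in at least 4 libraries. Of the 2407 genes reported from this test alone, 293 (12.2%) were called in KO414 against WT, 251 lower and 42 higher. The libraries did not overlap for 281 of the 293, where those of 28.5% of all 2407 genes did not. Without KO414 replicate 1 the count of called genes was 307. Of the lower genes, 24 were at 0 in all 4 KO414 libraries and 113 held at most 12 scaled reads over the 4. Of the called genes 71 passed the filter through the WT libraries alone and 3 through KO414 alone, and such genes had to differ, so the split of losses and gains is no measure of direction. By the rule used above, 48 low-RPKM genes (1.99%) were own to KO414, 40 lower and 8 higher. That number was 26 with a constant of 0.1, 83 with 0.02 and 91 with limma-voom, and the 293 calls became 165 with a constant of 0.1 and 449 with limma-voom.

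The low-RPKM genes with the largest losses in KO414 included several that KO313 also lost. CALML3, a calmodulin-like protein of epithelial cells, was at 0 in all 4 KO414 libraries and at 0.768, 0.479, 0.609 and 0.507 RPKM in WT, at least 13.6-fold lower with the floor set at 3 scaled reads per library. NHLH2, a neuronal helix-loop-helix factor, was at 0.00870, 0.00870, 0 and 0 RPKM in KO414 and at 0.348 to 0.610 RPKM in WT. CDH10, a cadherin, was at 0.00438, 0.00438, 0 and 0 RPKM in KO414 and at 0.368 to 0.548 RPKM in WT. KLHDC7A and PXT1 likewise lay at or below 0.0101 RPKM in every KO414 library. All 5 were called in KO313 too, and none differed between the clones past the test (limma adjusted p of 0.231 to 0.981).

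Own to KO414 in this range was the loss of SESN3, a stress-inducible sestrin that restrains mTORC1 and in many cells is controlled by FOXO factors. It was at 0.00233, 0.00698, 0.0140 and 0.00931 RPKM in KO414, at 0.219 to 0.284 RPKM in KO313 and at 0.584, 0.485, 0.431 and 0.512 RPKM in WT. The mean was 61.7-fold lower than in WT (limma adjusted p = 4.67e-09) and the clones differed by -2.38 on the log2 scale (limma adjusted p = 2.64e-07). GULP1, an engulfment adaptor, was at 0.0162, 0.00323, 0.00647 and 0.0129 RPKM in KO414, at 0.417 to 0.510 RPKM in KO313 and at 0.575, 0.320, 0.479 and 0.546 RPKM in WT, 49.5-fold lower. ZNF229, a zinc finger gene, was 69.2-fold lower, with 6 scaled reads in KO414, 225 in KO313 and 415 in WT. CDKN1C, the CIP/KIP inhibitor p57, was at 0.115, 0.0529, 0.0706 and 0.0529 RPKM in KO414 and at 0.556, 0.600, 0.476 and 0.670 RPKM in WT, 7.91-fold lower. KO313 was between them at 0.159 to 0.450 RPKM. SESN3 and ZNF229 were also lower in KO313 than in WT, by 0.87 and 0.74 on the log2 scale (limma adjusted p of 0.000639 and 0.00226).

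Several of the 40 lower own genes of this range are known from neurons. NRXN3, a presynaptic adhesion receptor, was at 0, 0.00385, 0.00385 and 0.00385 RPKM in KO414, at 0.216 to 0.287 RPKM in KO313 and at 0.187 to 0.231 RPKM in WT. PCLO and RIMS2, scaffolds of the presynaptic active zone, were 60.6-fold and 4.64-fold lower than in WT. PCLO was lower in KO313 as well, by less, with means of 0.103 RPKM in KO313 and 0.227 RPKM in WT (limma adjusted p = 0.000388). CNTN3, an adhesion protein of the contactin family, held 3 scaled reads in KO414, 253 in KO313 and 280 in WT. GABRA2, a GABA receptor subunit, was 8.26-fold lower, SCN9A, a voltage-gated sodium channel gene, 12.3-fold, and NPY1R, the neuropeptide Y receptor, had 2 scaled reads in KO414, 104 in KO313 and 189 in WT (KO313 against WT, limma adjusted p = 0.0174). Of the list of 42 neuronal and synaptic genes, however, 10 passed the first filter and 11 only the second, and the own losses among them were NRXN3 and SCN9A. Over all 2407 low-RPKM genes, 40 were own and lower. In the first test 6 members of that list were higher and 3 lower in KO414 at an adjusted p under 0.05. Over all tested genes 15.2% were higher and 14.6% lower. The list median was 0.35 on the log2 scale, against 0.00618 over all tested genes. The neuronal genes of this paragraph were chosen after their values had been seen.

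Other lower own genes have roles outside neurons. POF1B, an actin-binding protein of epithelial junctions, was at 0.0489, 0.0444, 0.0356 and 0.0356 RPKM in KO414, at 0.382 to 0.493 RPKM in KO313 and at 0.587, 0.547, 0.485 and 0.587 RPKM in WT, 13.4-fold lower. CLGN, a chaperone of the endoplasmic reticulum known from the testis, was 25.3-fold lower. FREM2, an extracellular matrix protein of basement membranes, was 7.44-fold lower, and NR3C2, the mineralocorticoid receptor, 5.41-fold. PLCB1, a phospholipase C, was 13.3-fold lower. CFHR4, a complement factor H relative, was at 0 in all 4 KO414 libraries, with 64 scaled reads in KO313 and 42 in WT, at least 3.5-fold lower than in WT. It shares sequence with other members of its family, so its reads may be split among them. With KO414 means set to no less than 3 scaled reads per library, 15 of the 40 lower own genes were at least 10-fold below WT and 2 less than 3-fold. CPLX1, at 4 scaled reads in KO414 against 62 in WT, lies in the 4p stretch described above, and NPY1R, GABRA2, CLGN, ANK2, NR3C2, RNF150 and SHISA3 are elsewhere on chromosome 4.

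The 8 higher own genes of this range include AMZ1, HUNK and TESC, which passed the filter through the KO414 libraries alone and so had to differ. AMZ1, an archaemetzincin family protease, was at 0.434, 0.352, 0.280 and 0.430 RPKM in KO414, at 0.00430 to 0.0129 RPKM in KO313 and at 0.0301, 0.0430, 0.0344 and 0.0258 RPKM in WT, 11.2-fold higher. HUNK, a protein kinase, was 15.2-fold higher, at 0.0800 to 0.117 RPKM in KO414 and 0.00534 to 0.00801 RPKM in WT. KLK1, tissue kallikrein, was 2.88-fold higher with 0.864, 0.494, 0.466 and 0.466 RPKM in KO414 and 0.110 to 0.247 RPKM in WT, KO414 replicate 1 being the highest. SEC14L4 (8.43-fold higher), TESC, NKAIN1, KCNJ12 and C1orf61 were the others. BCHE, butyrylcholinesterase, was higher in both clones, with 0.179 to 0.215 RPKM in KO414, 0.0716 to 0.125 RPKM in KO313 and at most 0.00598 RPKM in WT.

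**Figure D4:**
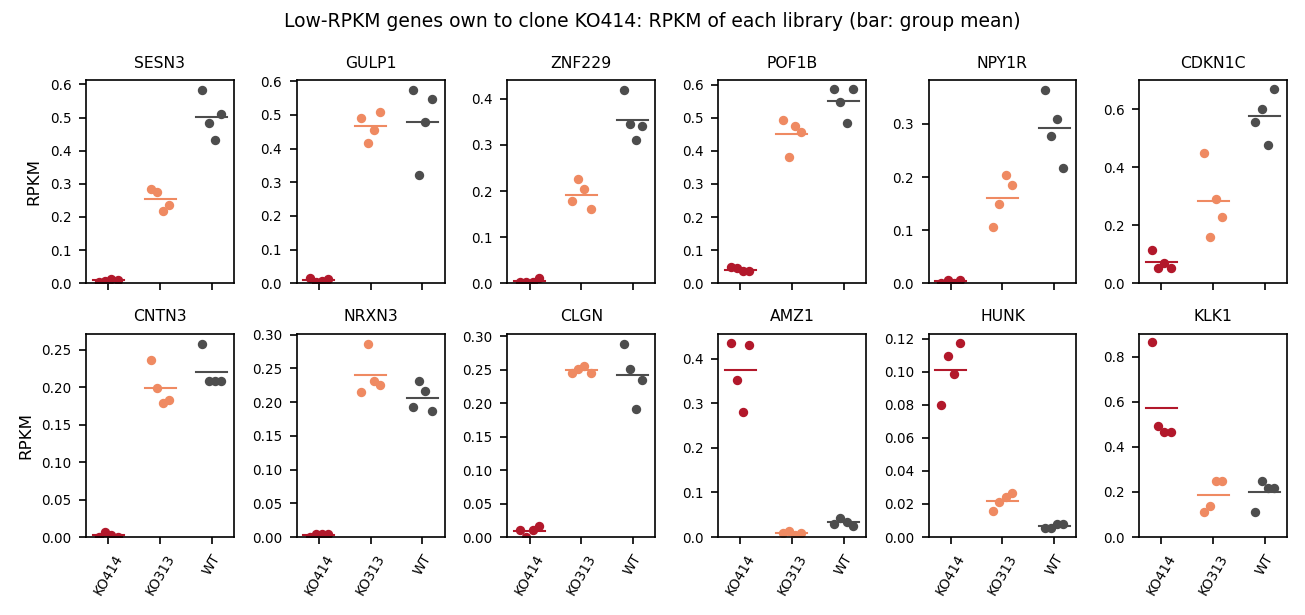
RPKM of each library (points) with the group mean (bar) in KO414, KO313 and WT, left to right, for 12 low-RPKM genes own to KO414, each panel with its own axis from 0. In the first 9 panels the KO414 points lie near 0 and below all others, CDKN1C with the highest at 0.115, and in the last 3 (AMZ1, HUNK, KLK1) they lie above all others.

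A small set of genes moved in opposite directions in the clones. COL16A1, a fibril-associated collagen, was at 4.58, 3.28, 3.40 and 3.67 RPKM in KO414, at 0.232 to 0.371 RPKM in KO313 and at 1.77, 1.54, 1.40 and 1.54 RPKM in WT, 2.39-fold higher in KO414 than in WT (limma adjusted p = 6.52e-06). RBM11 was lower in KO414 and higher in KO313, and ZNF736 was higher in KO414 and lower in KO313, both at low RPKM. ADAMTS1, a secreted metalloprotease, was at 0.0437 to 0.0606 RPKM in KO414, at 0.754 to 0.891 RPKM in KO313 and at 0.330 to 0.380 RPKM in WT. Its mean was 7.33-fold lower in KO414 than in WT, but on the log2(RPKM + 0.5) scale the difference was -0.64 (limma adjusted p = 4.51e-06) and did not pass the fold threshold. CHRNA9, a nicotinic acetylcholine receptor subunit, was higher in both clones to different degrees, with 10.6, 12.6, 12.1 and 12 RPKM in KO414, 2.70 to 3.08 RPKM in KO313 and 0.903, 0.965, 1.02 and 1.03 RPKM in WT. It was 12.1-fold higher in KO414 than in WT, and the clones differed by 1.86 on the log2 scale (limma adjusted p = 4.80e-09).

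The lowest log2 differences of KO414 from WT were those of genes that were called lower in KO313 too. GDF15, a stress-induced cytokine of the TGF-beta superfamily, was at 0.597, 0.310, 0.227 and 0.358 RPKM in KO414 and at 65.1, 53.1, 57.6 and 58.7 RPKM in WT, 157-fold lower (log2 difference -6.09 ± 0.109, SE; limma adjusted p = 1.08e-12). INPP5D, a lipid phosphatase that opposes PI3K signaling, was 346-fold lower, and TRIM22, an antiviral TRIM protein, 572-fold. CDKN1A, the p21 inhibitor of cyclin-dependent kinases, was at 35.6, 25.4, 34.0 and 32.7 RPKM in KO414 and at 258, 228, 272 and 238 RPKM in WT, so that it kept a level well above most genes after a 7.80-fold fall. BBC3, the pro-apoptotic BH3-only protein PUMA, was 17.2-fold lower, and TP53INP1, 23.3-fold. None of these differed between the clones past the test.

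Across the 6 lists of p53 targets, written from general knowledge, 101 of 110 entries were tested. Of the 101, 36 were called lower and 0 higher in KO414, where 1.58% and 0.336% of all tested genes were. At an adjusted p under 0.05 at any fold 76 were lower and 4 higher, where 14.6% and 15.2% of all tested genes were. The median was -0.62 on the log2 scale, against 0.00618 over all tested genes. At any fold, the cell cycle arrest list had 11 of 13 lower (CDKN1A, BTG2, ZMAT3) and the apoptosis list 15 of 17 (BBC3, TP53INP1, TNFRSF10D). In the list of DNA repair and nucleotide supply 4 of 9 were lower, among them RRM2B, a subunit of ribonucleotide reductase, with 6.38, 8.24, 8.86 and 7.99 RPKM in KO414 against 60.2, 47.5, 49.8 and 51.4 RPKM in WT, and XPC, the damage sensor of nucleotide excision repair, 2.71-fold lower. No member of the 6 lists was own to KO414, and 4 of the 101 differed between the clones at an adjusted p under 0.05 (2 of them higher in KO414), a share near the 3.36% of all tested genes that did. A p53 target is defined by its response to p53, so the direction of these lists is not an independent result.

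Inflammatory genes rose in KO414. Of 20 tested members of the list of NF-kB cytokines and chemokines, 17 were higher and 0 lower at an adjusted p under 0.05, where 15.2% and 14.6% of all tested genes were, with a median of 0.65 on the log2 scale. Of the 17, 6 were called, where 0.336% of all tested genes were called higher. IL6 was at 2.70, 2.14, 2.57 and 2.45 RPKM in KO414 and at 0.207, 0.142, 0.131 and 0.185 RPKM in WT, 14.8-fold higher. This rise was shared by KO313, where IL6 averaged 2.27 RPKM (KO414 minus KO313 limma adjusted p = 0.924). The neutrophil chemokine CXCL1 was at 15.4, 12.4, 15.1 and 14.9 RPKM in KO414, at 8.89 to 11.4 RPKM in KO313 and at 2.48, 2.77, 2.23 and 2.69 RPKM in WT, and it differed between the clones by 0.52 on the log2 scale (limma adjusted p = 0.00667). Of the same list IL1B was 9.77 RPKM in KO414, 4.63 RPKM in KO313 and 4.80 RPKM in WT on average. In KO414 it was above WT by 0.95 on the log2 scale, just under the fold threshold. In all, 4 members differed between the clones at an adjusted p under 0.05 (CXCL1, IL1B, TNFAIP3 and CSF3), all 4 being higher in KO414, where 1.15% of all tested genes were. The immune markers named above were under 0.05 RPKM in KO414. Of the list of 22 immune and endothelial markers, however, 3 were tested, and CD68 and CD14 were higher at an adjusted p under 0.05. The highest KO414 mean in that list was 4.60 RPKM. The source of the cytokine mRNA was not tested.

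Some cell cycle genes were higher in KO414 by less than the fold threshold. Of the genes of the G1/S transition and replication, 23 of 38 tested were higher and 3 lower, and of those of G2/M and mitosis 9 of 36 were higher and 0 lower, where 15.2% and 14.6% of all tested genes were, with none called in either list. E2F2, an E2F activator, was at 5.56, 5.39, 6.69 and 6.08 RPKM in KO414 and at 2.45 to 2.93 RPKM in WT, 2.17-fold higher by the means and 0.99 higher on the log2 scale, and the cyclin gene CCNE1 was 1.62-fold higher. FOXM1, which drives mitotic genes, was 1.39-fold higher and AURKB, a mitotic kinase, 1.49-fold. SLBP, of the 4p stretch, was the lower gene with the smallest p of the G1/S list. Between the clones, 2 of the 38 (1 higher in KO414) and 0 of the 36 differed at an adjusted p under 0.05. Over all tested genes 3.36% did.

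Matrix, mesenchymal and epithelial genes shifted in part. The counts of members of their lists are at an adjusted p under 0.05, where 15.2% of all tested genes were higher and 14.6% lower. SPARC, a collagen-binding matricellular protein, was at 15.4, 15.6, 15.6 and 15.8 RPKM in KO414 and at 1.52, 1.62, 1.81 and 1.42 RPKM in WT, 9.79-fold higher, without a detected difference from KO313 (limma adjusted p = 0.622). FN1, fibronectin, averaged 14.2 ± 2.93 RPKM in KO414, 7.18 RPKM in KO313 and 5.6 ± 0.290 RPKM in WT (SD, n = 4 each), and the clones differed (limma adjusted p = 0.000662). The repressor gene SNAI1 was 2.48-fold higher, but CDH2, N-cadherin, was lower, at 0.393 RPKM in KO414, 1.12 RPKM in KO313 and 0.917 RPKM in WT. Of 13 tested members of the mesenchymal list 7 were higher and 2 lower. Of 21 basal and myoepithelial markers 12 were lower and 5 higher, and 6 basal markers summed to 1106 to 1194 RPKM in KO414 and 1649 to 1883 RPKM in WT. The lower sum was mostly KRT5 (means of 922 RPKM in KO414 and 1344 RPKM in WT) and KRT17 (75.4 RPKM in KO414 and 274 RPKM in WT), while the means of ITGA6, TP63 and ITGB4 were above those in WT. The part of this shift in the other results was not tested. KRT15 was 11.9-fold and KRT17 3.64-fold lower, while the laminin gene LAMB3 was higher by 0.94 on the log2 scale. The desmosomal cadherin gene DSC3 fell further in KO414 than in KO313, with 2.84, 4.01, 4.11 and 3.65 RPKM in KO414, 6.81 to 7.49 RPKM in KO313 and 10.8 to 12.3 RPKM in WT (KO414 minus KO313 -0.90 on the log2 scale, limma adjusted p = 5.03e-05). Of 12 luminal markers 9 were lower and 1 higher, with EHF, an epithelial ETS factor, 2.90-fold and CLDN4, a claudin, 2.77-fold lower. Of 24 cholesterol genes 14 were lower and 1 higher, with a median of -0.23 on the log2 scale. Of 75 ribosomal protein genes 13 were lower and 0 higher, a share of lower genes near that of all tested genes.

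Between shared and own genes lay those that were graded across the groups. DLX3, a homeobox gene of differentiating epithelium, was at 0.0440, 0.0147, 0.00733 and 0.0367 RPKM in KO414, at 0.235 to 0.403 RPKM in KO313 and at 0.697, 0.748, 0.763 and 0.594 RPKM in WT. It was 27.3-fold lower in KO414 than in WT, with the clones apart by -0.66 on the log2 scale (limma adjusted p = 0.000164), short of the fold threshold. HOXB4, another homeobox gene, was 8.0-fold lower than in WT, with KO313 between the groups at 0.628 to 0.865 RPKM against 0.0820 to 0.173 RPKM in KO414 and 0.793 to 1.36 RPKM in WT. NPTX1, a neuronal pentraxin, was 15.9-fold lower, with 50 scaled reads in KO414, 458 in KO313 and 795 in WT. SLITRK4, a synaptic adhesion gene, was 21.6-fold lower, with 61 scaled reads in KO414, 958 in KO313 and 1316 in WT. In both genes KO313 lay closer to WT than to KO414. DDN, dendrin, was graded in the other direction, at 1.49, 1.32, 1.37 and 1.53 RPKM in KO414, 0.523 to 0.713 RPKM in KO313 and 0.125 to 0.199 RPKM in WT. Several of the 67 genes that were not called between the clones were of this kind, and they are counted with neither the shared nor the own genes.

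**Figure D5:**
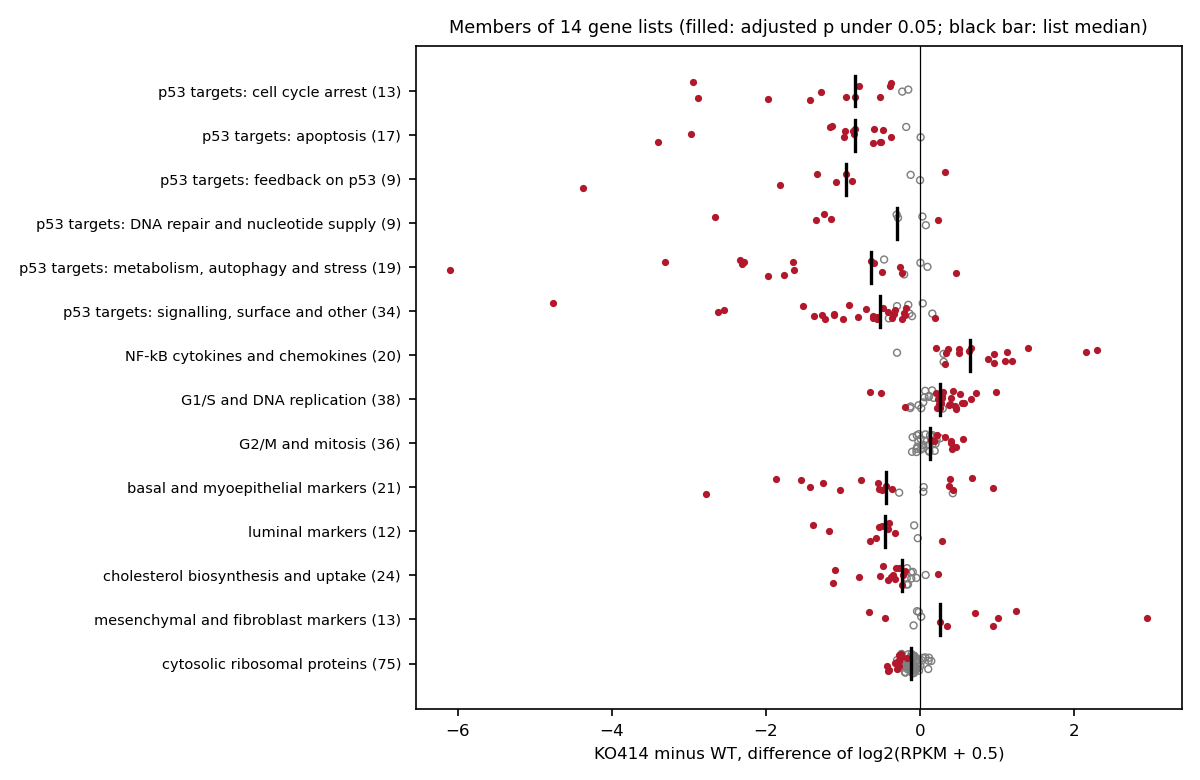
Difference in log2(RPKM + 0.5) of KO414 minus WT for the tested members of 14 gene lists, 1 point per gene, filled where the adjusted p was under 0.05, with the list median as a black bar and the number tested in parentheses. All 6 lists of p53 targets have medians below 0, the NF-kB list has its median at 0.65, and the ribosomal proteins lie close around their median of -0.12.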

How the data were processed

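RNA-seq of 12 MCF10A libraries (4 each of KO414, KO313 and WT) was deposited by the authors as a single table of RPKM values for 22328 gene symbols. Per the labels an mRNA kit was used, whereas the methods describe ribosomal RNA removal. The submitters' processing notes name Trimmomatic and hg19, while for the aligner, counter and strand setting nothing is given in the sources used here. The values are whole numbers divided by gene length and library total, and gaps among small whole numbers in 6 libraries show that they had been scaled, so they were not taken as read counts; a count of 1 in 1 kb is 0.0254 RPKM. Of the symbols, 26 are dates, of which 4 repeated entries were left out.

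Log2(RPKM + 0.5), or log2(RPKM + 0.05) for low-RPKM genes, was fitted with limma 3.58.1 (intensity trend, R 4.3.3) in a model of 3 groups, two-sided, with Benjamini-Hochberg adjustment over 12215 genes, or over all 14622 genes of the low-RPKM fit. Folds are ratios of group means. The methods of the study call the libraries biological repeats. Gene order came from RefSeq (GRCh38.p14), used for order only, since the files use hg19. Named genes were 6 genes of the study's text, the most changed called and own genes, and up to 3 members per list (30 lists), besides genes named after their values were seen. The edited gene and some others are counted but not reported singly here. The members and lists were chosen with earlier results of these data known. The fits were tested on simulated data. Alternatives changed the pseudocount, filter, scaling, block, trend and libraries. Tables and plots were made in Python 3.11.15 (pandas 2.3.3, numpy 2.4.6, matplotlib 3.10.9).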

Additional observations from a re-analysis of the deposited data

Results flagged for a closer look

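In 6 of the 122 named genes, a KO414 library lay far from the other 3, as would be found in about 1 in 20 groups by chance. CLDN1 was at 2.15 RPKM in its highest library (the next was 1.67), COL6A3 at 0.708 RPKM in its lowest, KO414 replicate 1 (the next was 1.07), and CXCL1 at 12.4 RPKM in its lowest (the next was 14.9). KLHDC7A at 0.00344, ZNF229 at 0.0102 and LCE1E at 0.0330 RPKM were the highest of KO414 libraries near 0.

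In 16 named genes that were called in KO414 against WT, the direct comparison of KO414 minus KO313 was also called, the limma difference of log2 values being given for each. All of them except CHRNA9 and COL16A1 are own to KO414. For the own genes this call is part of the definition and is no further result. EEF1A2 (3.65), CHRNA9 (1.86) and COL16A1 (2.39) were higher in KO414, as were the low-RPKM genes AMZ1 (2.84) and SEC14L4 (1.48). Lower in KO414 were FUOM (-2.14), SATB1 (-1.62), TMEM47 (-1.23), CHSY3 (-1.86), PLXDC2 (-1.50), TMEM129 (-1.18), GUCY1B3 (-1.73) and CTBP1 (-1.13), and in the low-RPKM fit SESN3 (-2.38), GULP1 (-3.12) and ZNF229 (-2.13).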

How the results depend on the processing

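The counts moved with the constant added before the logarithm and with the use of limma-voom. Against 234 called genes (41 higher, 193 lower) and 20 own genes, a constant of 1 gave 151 (27 higher, 124 lower) and 9, a constant of 0.1 gave 75 higher and 48 own, and limma-voom on the scaled whole numbers gave 387 (83 higher, 304 lower) and 57. For low-RPKM genes (293 called, 48 own), a constant of 0.1 gave 165 and 26, a constant of 0.02 gave 83 own, and limma-voom gave 449 and 91. With a constant of 1, 8 of the 20 own genes were still own, and SATB1, FUOM, CHSY3, EEF1A2 and TMEM129 were own under all 20 alternatives, MIR3613 under 10 of them. Leaving out each library in turn gave 193 to 249 called genes (36 to 50 higher, 148 to 206 lower), 15 to 25 own genes, 277 to 307 low-RPKM genes with 46 to 54 own, and -0.979 to -0.941 for the lowest run on chromosome 4, an alternative added after seeing the data. RUNX1, not called, lay between -0.0664 and 0.0558. With the repeat number as a replicate block 239 genes were called and 22 were own, and 295 low-RPKM genes, 47 of them own. The numbers did not pair KO414 with WT libraries, since same-numbered ones deviated together with correlations of -0.193, 0.135, -0.0593 and -0.119. Pairing of KO414 with KO313, on which the own genes also rest, was not tested. On the second principal component replicate 1 was the highest library in both clones (27.6 in KO414, 4.26 in KO313). Replicate 2 was the lowest in both (-17.5 in KO414, -8.81 in KO313). Over the named genes, 2423 alternative values kept direction and call, 17 lost and 20 gained the call, and 3, all of RUNX1, reversed direction. Most named genes were chosen for large changes or small p, which favors stable calls.

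Depth limits the low-RPKM genes, where 3 scaled reads at the median gene length of 4059 bases are 0.0188 RPKM, so that a gene at 0 is only bounded by that value. RPKM values keep no original depth, so no counting interval was given, and the scaling is part of every value.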
